A study of Mus musculus with 4 samples.

Results

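The ATP synthase of the inner mitochondrial membrane, the carriers that bring phosphate and ADP to it and take ATP away, and the adenylate and creatine kinases that pass its product on to the myofibrils were followed in mouse ventricle with and without the orphan nuclear receptor ERRα (gene Esrra). The list held 39 genes. Every probe set annotated to exactly 1 of them, under its current or an older symbol, was taken, which gave 51 probe sets for 32 genes out of 8251 genes with such a probe set on the array. Atp5f1b, Atp5mc3, Atp5pd, Prkaa1, Prkaa2, Prkab2 and Prkag2 had none and were not analysed here, and a probe set shared by Atp5f1c and a pseudogene was left out. Of the 51 probe sets, 45, for 31 genes, passed the filter on low signals (a mean of at least 350.6 over the arrays).

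The arrays were 4 one-colour Affymetrix arrays of total RNA, 2 from ventricles labelled ERRa wt and 2 from ventricles labelled ERRa ko, all at baseline and without pressure overload. At issue was how expression at rest depends on the receptor. The knockout is named only by its gene; strain, age and whether a sample is 1 animal or a pool are not given in the sources used here, so the spread between samples may be technical. Each value is a signal on a linear scale, scaled by the submitters to the same trimmed mean on every array, and arrays are named here by genotype and the number in their title.

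ATP synthase is a rotary machine. Protons flowing back through a ring of c subunits in the membrane turn a central stalk inside a catalytic head, which makes ATP, while a peripheral stalk holds the head still. The adenine nucleotide translocase (Slc25a4, Slc25a5) exchanges the new ATP for ADP across the inner membrane, the phosphate carrier (Slc25a3) brings in phosphate, and the porins (Vdac1, Vdac2, Vdac3) open the outer membrane. In heart muscle the mitochondrial creatine kinase Ckmt2 charges creatine with ATP and the cytosolic kinase Ckm gives the phosphate back at the contractile fibres, adenylate kinases recover energy from ADP, and the kinase AMPK senses AMP. ERRα is known as a regulator of mitochondrial energy genes, and it binds a response element read as TNAAGGTCA.

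Promoter letters are shown first, since ERRα is the factor that was removed. RefSeq windows of assembly GRCm38.p6, from 250 bases before to 50 after a gene's start, were held for 35 of the 39 genes (50 windows). On either strand, TNAAGGTCA stood in 2 of the 50 windows, those of Atp5mc3 and Prkag2, and in 1.28% of all 32851 windows. Neither gene had a usable probe set. The shorter AAGGTCA, which lies within TNAAGGTCA, stood in 9 of 50 windows (18.0%) and in 4.72% of all windows. It was found for 5 of the 15 ATP synthase genes with a window (33.3%) and for 5.38% of all 27025 genes. This search was added after that for TNAAGGTCA. These matches are letters in a window and not binding sites, and no binding was measured here. Both matches of the long element lay upstream of a start, 52 bases before it for Atp5mc3 and 43 bases before it for Prkag2. The stretches below are the long match of Atp5mc3 and the short match in 4 measured ATP synthase genes and in Ak1. The matched letters, or their reverse complement, are in capitals (all of TNAAGGTCA for Atp5mc3, AAGGTCA for the others). Matches within the first bases after a start, or in a gene with several starts, are cut to 30 bases.
Atp5mc3, chr2:73911327-73911428, minus strand: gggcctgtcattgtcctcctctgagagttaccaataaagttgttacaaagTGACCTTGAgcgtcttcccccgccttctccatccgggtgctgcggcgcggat
Atp5if1, chr4:132535597-132535664, minus strand: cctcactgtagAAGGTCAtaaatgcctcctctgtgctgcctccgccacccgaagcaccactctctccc
Atp5mg, chr9:44920743-44920805, minus strand: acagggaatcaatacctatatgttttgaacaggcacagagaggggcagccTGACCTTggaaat
Atp5f1e, chr2:174464059-174464088, minus strand: ctactcaggccTGACCTTcctgctgccggg
Atp5me, chr5:108434358-108434387, minus strand: cttccggcgcgAAGGTCAcggacaaaatgg
Ak1, 1 of 4 windows, chr2:32628289-32628318, plus strand: gtgactttcccAAGGTCAttctgcctcctg
AAGGTCA was also found for Ckmt1 and Vdac1, and within the long match of Prkag2, which are not printed. Atp5if1, Atp5f1e and Ak1 had lower signals on both knockout arrays than on both wild-type arrays (as had 16.7% of all probe sets tested) and Atp5me had higher ones (as had 20.7%). The groups overlapped for the stronger Atp5mg probe set and the kept Ckmt1 probe set, and Vdac1 fell below the filter. Atp5pb, the ATP synthase gene with the lowest p, held neither set of letters in its window.

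The targeted gene was low on both arrays labelled knockout. Its weaker probe set gave 2688 and 2828 on the wild-type arrays and 83.6 and 55.2 on the knockout arrays, and it was the 1 probe set of the 7453 tested (0.0134%) that passed at a Benjamini-Hochberg adjusted p of 0.05 in limma. Its stronger probe set gave 8598 and 8038 against 922 and 1050 (log2 -3.08, limma adjusted p = 0.179) and did not pass. All 7 ventricular cardiomyocyte markers measured, among them Myh6, Myl2 and Tnni3, were kept by the filter, and their summed signal was 1003500 and 986001 in wild type against 822376 and 985751 in knockout, the first value of each pair being replicate 1. Summed atrial markers (4 of 4 measured; Sln below the filter) gave 8885 to 10715 in wild type against 17050 to 17396 in knockout. Summed smooth muscle markers (7 of 7 measured; Cnn1 below the filter) gave 19632 to 20663 against 25411 to 34110. That difference lay in Acta2 alone, the smooth muscle actin gene, at 4135 and 2909 against 18753 and 10916; without it the sum was 15496 and 17754 against 15356 and 14495. Fibroblast markers (7 of 7) gave 62110 to 73170 against 84949 to 89270. Endothelial markers (7 of 7) gave 16813 to 19942 against 14591 to 14737. On their strongest probe sets, Cdh5, Tie1 and Flt1 were lower without overlap, while Pecam1, Tek, Kdr and Emcn overlapped. The β-actin control probe sets gave 5'/3' ratios of 0.966 and 0.909 in wild type and of 0.694 and 0.813 in knockout, and those for Gapdh gave 1.04 and 1.01 against 0.994 and 0.968. The part of these differences in the results was not tested, and in whole ventricle fewer cells of a type and less RNA per cell cannot be told apart.

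No member passed limma's test over all probe sets: 0 of 45 probe sets were called, with adjusted p from 0.694 to 0.997, and 2 had an unadjusted p under 0.05, both higher in knockout, where 4.13% of all probe sets were higher and 2.66% lower at that level. By a count without a model, 2 of 45 were at least 1.5-fold higher in knockout with both knockout arrays above both wild-type arrays (4.44%, against 6.84% of all probe sets), and 0 were at least 1.5-fold lower without overlap (against 4.2%). Groups did not overlap at any fold for 9 of 45 higher (against 20.7%) and 6 of 45 lower (13.3%, against 16.7%). These shares lie near or below those of the whole array. A higher mean in knockout was found for 23 of 45 members and 53.2% of all probe sets, but after median scaling for 17 of 45 and 38.7%. The median log2 difference was -0.01 over 31 genes, each with its kept probe set of highest mean log2 signal, and 0.01 over 5653 genes. With 2 arrays a genotype the smallest two-sided p of an exact permutation test is 0.33, so no such test is given.

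**Figure D1:**
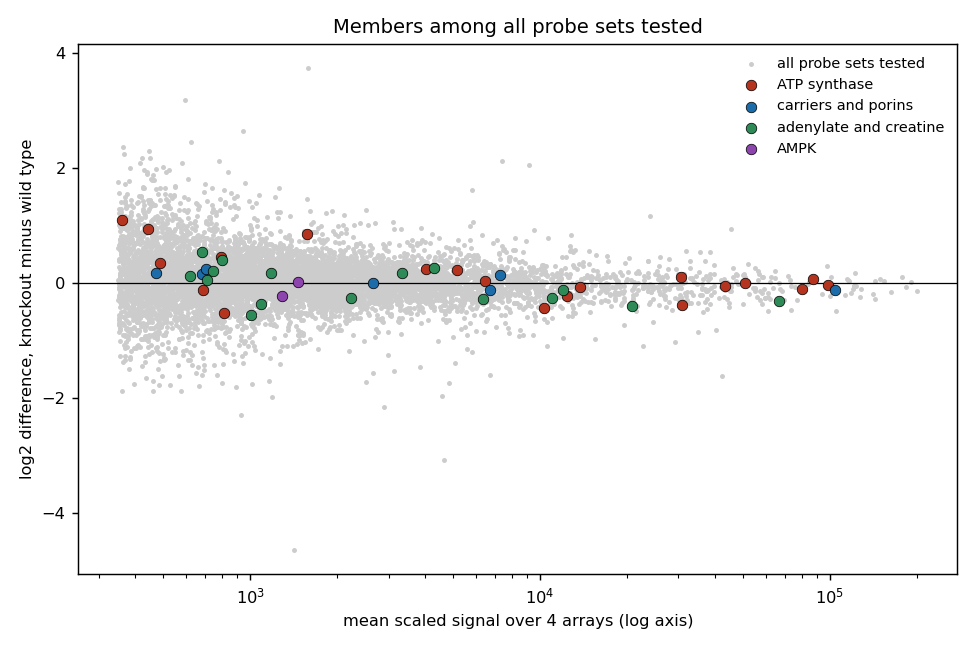
Log2 difference between knockout and wild type against the mean scaled signal over 4 arrays (log axis) for the 7453 probe sets tested (grey) and the 45 kept member probe sets (coloured by group). Members span log2 -0.56 to 1.09 and lie within the cloud of all probe sets; the members' 2 widest differences belong to weak signals.

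Strong and weak members were counted apart. Of the 25 member probe sets in the band of strongest signal (a mean of at least 2158, the 80th percentile), 17 were lower in knockout, with a median log2 difference of -0.08, where 54.4% of all such probe sets were lower and their median was -0.03. Of the 20 kept members below that bound, 15 were higher, with a median of 0.18, where 57% of all were higher and the median was 0.07. Among those 20, Atp5mf and the weak Atp5f1d probe set were kept through their knockout values and had to be higher; without them 13 of 18 were higher. Knockout replicate 1 was the lowest array for 10 of the 25 strong member probe sets (40.0%) and for 28.5% of all strong probe sets. That array also had the lowest sum of ventricular markers. Knockout replicate 2 was the highest array for 9 of the same 25 (36%) and for 23.6% of all strong probe sets.

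In the catalytic head and its central stalk, Atp5f1a and Atp5f1c showed close signals in both genotypes. Atp5f1a, the α subunit of the head, gave 82396 and 88257 on the wild-type arrays and 88135 and 90642 on the knockout arrays (log2 difference 0.07, SE 0.20). Its groups overlapped, by 1 knockout array that lay just under the higher wild-type array. Atp5f1c, the γ subunit that turns inside the head, gave 49001 and 53644 against 47980 and 53692 on its stronger probe set (log2 -0.01, SE 0.21) and -0.06 (SE 0.23) on the other. On both probe sets knockout replicate 1 was the lowest array and knockout replicate 2 the highest, so the 2 wild-type arrays lay between the knockout arrays.

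Atp5f1d, the δ subunit of the central stalk, had 5 probe sets, which did not give 1 direction. The strongest gave 16028 and 12350 in wild type and 13339 and 13294 in knockout (log2 -0.08, SE 0.23). The others had log2 differences of -0.22, 0.23, -0.13 and 0.93. The last is a weak probe set whose wild-type arrays read 501.5 and 149.2 and whose knockout arrays read 347.2 and 783.3, and it passed the filter through the knockout group alone. Its wild-type arrays differed from each other by more than the group means did from each other.

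Atp5f1e, the small ε subunit at the foot of the central stalk, was the gene of the head and central stalk whose groups did not overlap. It gave 33110 and 36256 in wild type and 29342 and 24304 in knockout. The log2 difference was -0.38 (SE 0.22, limma unadjusted p = 0.151, adjusted p = 0.810), and over 12 alternatives it stayed between -0.51 and -0.24. Probe sets with a letter suffix (s, x, f, r, g or i) were set apart, and not every such suffix stands for cross-hybridization. The single Atp5f1e probe set carries such a suffix. So do the strongest kept probe sets of Atp5f1c, Atp5f1d, Atp5mc2, Slc25a5, Vdac2, Ckm, Ckmt1 and Gamt, and the Esrra probe set that passed. Without suffixed probe sets, 30 of the 45 kept member probe sets remained.

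Atp5if1, the inhibitory factor that keeps the enzyme from splitting ATP when the proton gradient fails, was likewise lower on both knockout arrays. It gave 11544 and 11972 in wild type against 7357 and 10413 in knockout (log2 -0.43, SE 0.26, limma adjusted p = 0.813). Most of the difference came from knockout replicate 1, and without that array the log2 difference was -0.18.

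In the peripheral stalk, Atp5pb, the b subunit that forms most of its length, had the lowest p of all members. It gave 1119 and 1123 on the wild-type arrays and 1897 and 2158 on the knockout arrays, so both knockout arrays lay well above a close wild-type pair. The difference was 1.81-fold (log2 0.85, SE 0.20, limma unadjusted p = 0.0104, adjusted p = 0.694). Over 13 alternatives the log2 difference stayed between 0.73 and 0.95 and the adjusted p between 0.355 and 0.884. The mean signal of Atp5pb lay under the bound of 2158 for strong signals. Of all kept probe sets below that bound, 57% were higher in knockout. The other stalk genes measured had stronger signals and smaller differences. Atp5pf, the F6 subunit, gave 29576 and 29391 against 33890 and 29901 (log2 0.11, SE 0.20). Atp5po, the subunit that joins the stalk to the head, gave 87744 and 77482 against 65401 and 89300 (log2 -0.11, SE 0.25), with the lowest and the highest value both on knockout arrays.

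The second gene at least 1.5-fold higher without overlap was Atp5mf, the f subunit of the membrane part. Its only probe set was weak, at 259.4 and 196.4 in wild type and 611.0 and 379.3 in knockout (log2 1.09, SE 0.33, limma unadjusted p = 0.0237, adjusted p = 0.694). The wild-type mean of 227.9 lay under the filter's bound, so the probe set was kept through its knockout values and had to differ. Raising the floor to the 40th percentile left a log2 difference of 0.50. Atp5me, the e subunit, which takes part in dimer formation, gave 3265 and 4177 against 4327 and 4434 (log2 0.25, SE 0.23), a difference of means smaller than the gap between the wild-type arrays. Atp5mg, the g subunit, gave 99254 and 100057 against 91813 and 103942 (log2 -0.03, SE 0.20), and 0.34 on a weak second probe set.

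The c ring is encoded by several genes for 1 mature protein. Atp5mc2 gave 6311 and 6420 in wild type and 6543 and 6554 in knockout, which do not overlap but differ by log2 0.04 (SE 0.19). A second Atp5mc2 probe set fell below the filter. The probe sets of Atp5mc1 pointed opposite ways. One gave 606.2 and 731.5 against 1014 and 813.8 (log2 0.45, SE 0.24). The other gave 694.1 and 1240 against 711.7 and 592.3 (log2 -0.52, SE 0.35), with 1 high wild-type array. For the 13 ATP synthase genes kept, 7 were higher and 6 lower, with a median of 0.04. Atp5mc1 counted as higher because the first of its probe sets had a slightly higher mean log2 signal. The other had the higher mean signal on the linear scale, and on it Atp5mc1 would count as lower. Atp5mf, also among the 7, was kept through its knockout values and had to be higher.

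**Figure D2:**
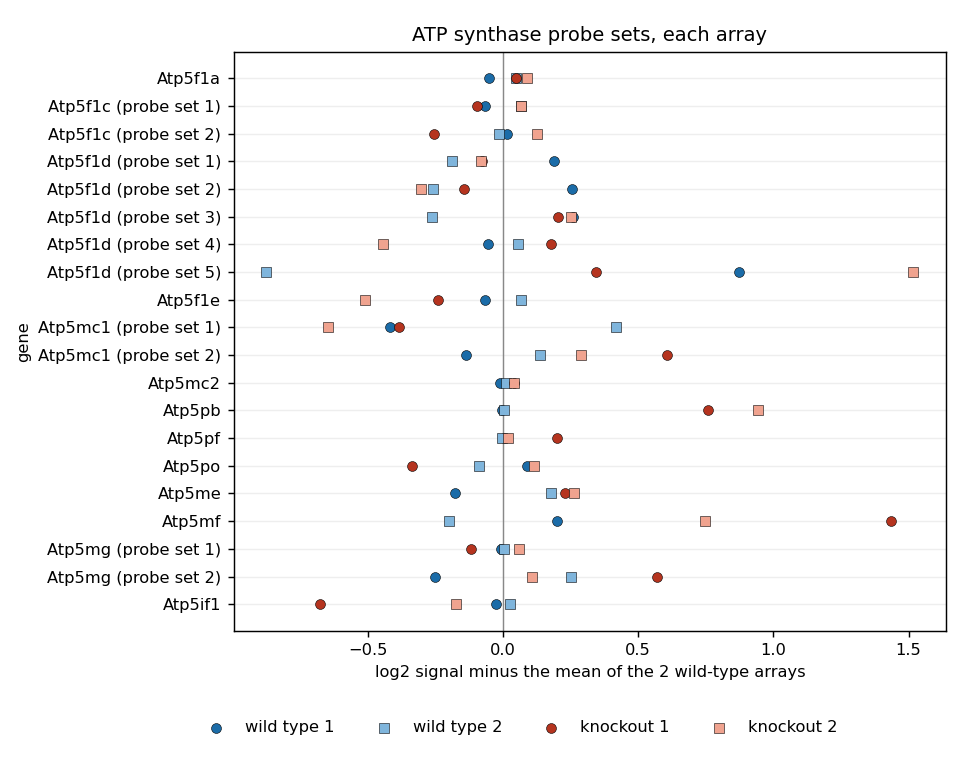
Log2 signal of each array minus the mean of the 2 wild-type arrays for the 20 kept ATP synthase probe sets. Probe sets of 1 gene are numbered from the highest mean signal on the linear scale. Both knockout points of Atp5pb and Atp5mf lie to the right of both wild-type points, as do those of Atp5pf, Atp5me, Atp5mc2 and 1 Atp5mc1 probe set by smaller distances; those of Atp5f1e and Atp5if1 lie to the left, and the other 12 overlap.

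The inner membrane carriers overlapped between the genotypes on their strongest probe sets. Slc25a4, the translocase isoform of heart and skeletal muscle, gave 112518 and 103993 in wild type and 88152 and 113044 in knockout (log2 -0.12, SE 0.23). The knockout arrays enclosed the wild-type ones. Slc25a5, the isoform found in most tissues, gave 9036 and 5253 against 6112 and 6559 (log2 -0.12, SE 0.33) on its strongest probe set and 0.24 on a weaker one, while another fell below the filter. Slc25a3, the phosphate carrier, was read by 1 weak probe set at 837.3 and 381.9 against 1178 and 340.1 (log2 0.16, SE 0.73), so each genotype held 1 high and 1 low array.

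Of the porins, Vdac2 gave 2448 and 2854 in wild type and 2634 and 2629 in knockout (log2 -0.01, SE 0.21), and 0.18 on a second probe set. Vdac3 gave 5638 and 8314 against 7011 and 8023 (log2 0.13, SE 0.28). Vdac1, the most studied of these channels, had a probe set at 297.7 and 99.6 against 107.2 and 169.7. It fell below the filter, with 2 of 4 arrays under the floor of 110, and was not tested. The median over the 5 carrier and porin genes kept was -0.01.

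The adenylate kinases had lower mean signals in knockout on their strongest probe sets, none past the threshold. Ak1, the cytosolic form of muscle, gave 21920 and 25373 in wild type and 17881 and 17950 in knockout. The knockout arrays were nearly equal and lay under both wild-type arrays, a 1.32-fold difference (log2 -0.40, SE 0.21, limma unadjusted p = 0.117, adjusted p = 0.792). Over 13 alternatives it stayed between -0.52 and -0.29. Ak4, a kinase of the mitochondrial matrix, gave 876.8 and 1549 against 750.8 and 832.4 (log2 -0.56, SE 0.34). Its second probe set gave 357.6 and 1153 against 731.5 and 740.9 (log2 0.20, SE 0.59). On both, wild-type replicate 2 was the highest array, and without it the stronger probe set stood at -0.15 and the other at 1.04. Ak3, the matrix kinase that uses GTP, gave 2452 and 2303 against 1379 and 2802 (log2 -0.27, SE 0.39), and on a weaker probe set 576.9 and 811.5 against 849.6 and 950.4 (log2 0.39, SE 0.26). Ampd3, which deaminates AMP, gave 1142 and 1057 against 1014 and 1514 (log2 0.17, SE 0.27).

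The creatine kinases of the muscle shuttle had slightly lower mean signals in knockout on their strongest probe sets, none past the threshold. Ckmt2, the mitochondrial kinase of heart and skeletal muscle, gave 73654 and 73619 on the wild-type arrays and 55797 and 62958 on the knockout arrays, which did not overlap. The difference was 1.24-fold (log2 -0.31, SE 0.20, limma unadjusted p = 0.187, adjusted p = 0.820), and over 13 alternatives it stayed between -0.44 and -0.19. A second Ckmt2 probe set gave 11799 and 12026 against 11914 and 8283 (log2 -0.26, SE 0.26), where the difference came from 1 array, and another lay under the floor on all 4 arrays. Ckm, the cytosolic muscle form, gave 12433 and 12525 against 10617 and 12229 (log2 -0.13, SE 0.20). A weak Ckm probe set gave 401.3 and 696.1 against 544.6 and 1081 (log2 0.54, SE 0.46). Ckb, the form of brain and smooth muscle that the heart also expresses, gave 8195 and 5658 against 7234 and 4372 (log2 -0.28, SE 0.36) and overlapped. Ckmt1, the mitochondrial form of other tissues, gave 835.9 and 388.0 against 707.2 and 539.8 (log2 0.12, SE 0.43). A second Ckmt1 probe set, at 122.3 and 265.4 against 449.1 and 334.3, fell below the filter.

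The genes that make or import creatine were read by 4 kept probe sets. Slc6a8, the creatine transporter, gave 3356 and 4548 in wild type and 4899 and 4473 in knockout (log2 0.26, SE 0.25). Gamt, which completes creatine synthesis, gave 3093 and 3198 against 3542 and 3526 without overlap (log2 0.17, SE 0.19), but 1130 and 1289 against 1164 and 758.6 on a weaker probe set (log2 -0.36, SE 0.29). Gatm, which catalyses the first step, gave 678.5 and 717.8 against 714.5 and 732.3 (log2 0.05, SE 0.20; -0.04 after quantile normalization and -0.07 after median scaling). A second Slc6a8 probe set lay under the floor on all 4 arrays. None of these passed (limma adjusted p 0.837 to 0.962). The 11 adenylate and creatine genes had a median of -0.13, with 6 lower and 5 higher. When all kept probe sets of a gene were averaged, the median was 0.05.

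The AMPK subunits could be followed for 2 of the 6 genes. Prkab1, the β1 scaffold subunit, gave 1337 and 1543 in wild type and 1760 and 1212 in knockout (log2 0.02, SE 0.27). Prkag1, the γ1 subunit that binds AMP, gave 634.0 and 1948 against 2148 and 418.4 (log2 -0.23, SE 0.97). Each genotype held 1 high and 1 low Prkag1 array, and the log2 difference was -1.41 without knockout replicate 1 and 0.95 without knockout replicate 2. The catalytic subunit genes Prkaa1 and Prkaa2 were not analysed here.

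**Figure D3:**
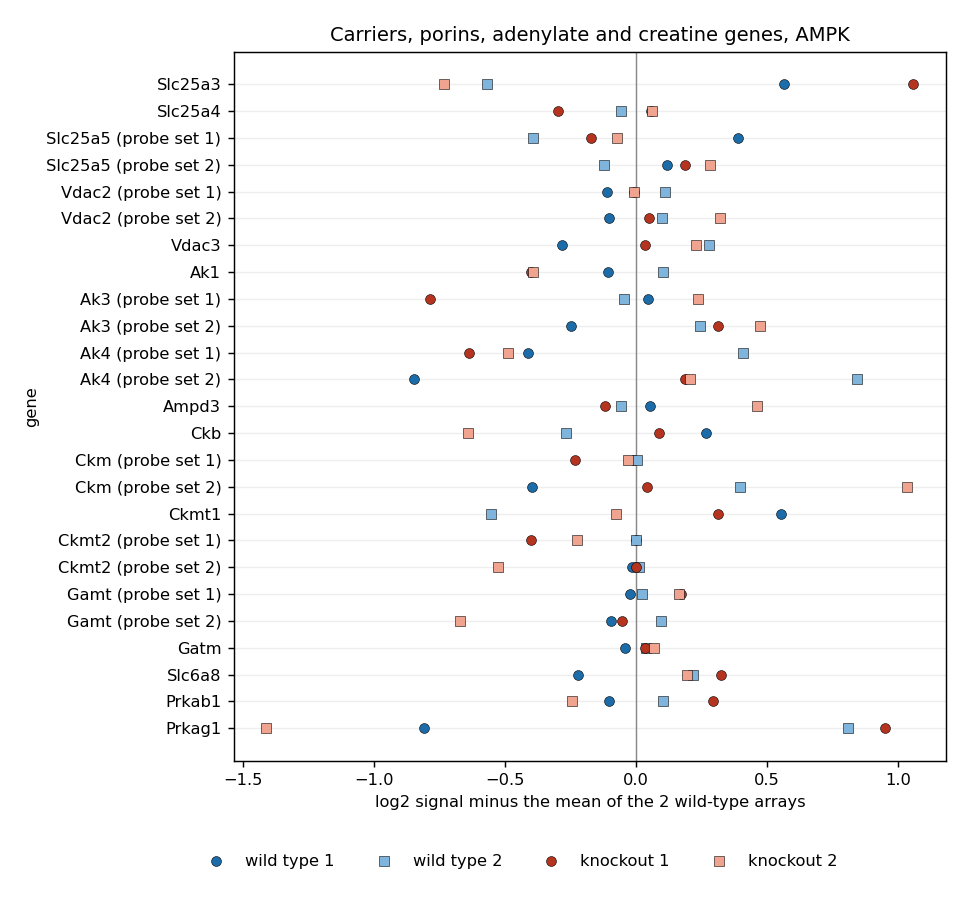
Log2 signal of each array minus the mean of the 2 wild-type arrays for the 25 kept probe sets of carriers, porins, adenylate and creatine genes and AMPK. Both knockout points lie to the left of both wild-type points for Ak1, the stronger probe set of Ak4 and the strongest of Ckm and Ckmt2, and to the right for the weaker kept probe set of Slc25a5, the weaker of Ak3 and the stronger of Gamt; Prkag1 and Slc25a3 scatter widely within each genotype.

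Several genes were read differently by their own probe sets. Of the 11 members with more than 1 kept probe set, 6 had log2 differences that lay more than 0.5 apart, namely Atp5f1d, Atp5mc1, Ak3, Ak4, Ckm and Gamt. In each of the 6 the probe sets had both signs, as they also had in Atp5mg, Slc25a5 and Vdac2. Atp5f1c and Ckmt2 were the pairs that lay closest, 0.05 apart.

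**Figure D4:**
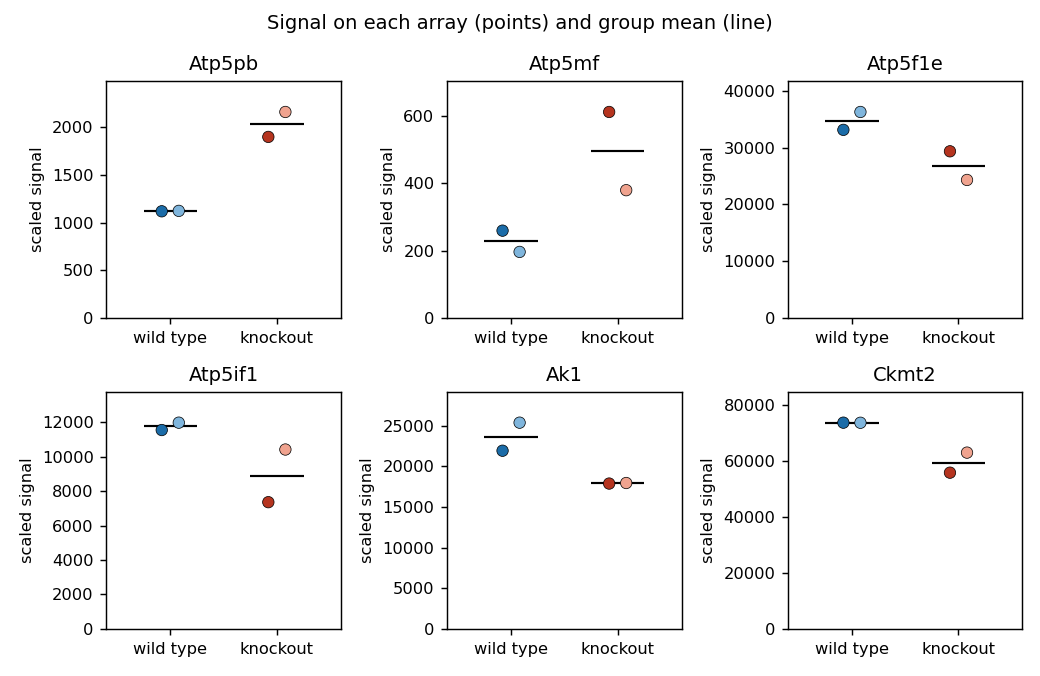
Scaled signal (axes from 0) on each wild-type and knockout array for 6 members whose groups did not overlap; points are arrays and lines are group means. Atp5pb and Atp5mf are higher in knockout (means of 2027 against 1121 and 495 against 228), while Atp5f1e, Atp5if1, Ak1 and Ckmt2 are lower; none passed over all probe sets.

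Other enzymes that handle purine nucleotides were read from a separate list of 20 genes, 13 of which had a kept probe set. No probe set passed (0 of 16; limma adjusted p 0.694 to 0.997), and 3 had an unadjusted p under 0.05, all lower in knockout (2.66% of all probe sets were lower and 4.13% higher at that level). Of the 16, 14 had a lower mean in knockout (87.5%, where 46.8% of all probe sets were lower) and 7 were lower without overlap (43.8%, against 16.7%). The median over the 13 genes was -0.31. It includes Aprt and Nme4 on probe sets kept through their wild-type values alone, which had to be lower, and was not taken without them. Over the 13 alternatives that median stayed between -0.50 and -0.16, the former when knockout replicate 1 and the latter when wild-type replicate 2 was left out. Adk, Aprt, Nme1 and Nme4 each had a probe set kept through its wild-type values alone, which had to be lower in knockout. Without these 4, 10 of 12 were lower, 4 of 12 were lower without overlap, and 1 of the 3 with an unadjusted p under 0.05 was left (Adss1). The shares over all probe sets given above still hold probe sets kept through 1 genotype, so these reduced counts have no matching share. The list was chosen with earlier results of these data known.

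Nme4, the nucleoside diphosphate kinase of the mitochondrion, was among those 4 and gave 575.4 and 539.8 in wild type against 266.4 and 147.8 in knockout (log2 -1.49, SE 0.34, limma unadjusted p = 0.00918, adjusted p = 0.694). Aprt, which salvages adenine, gave 547.8 and 540.2 against 373.8 and 326.3 (log2 -0.64, SE 0.20, adjusted p = 0.694), and 2 weaker Aprt probe sets below the filter leaned upward. Of those kept well above the bound, Adss1, the muscle form of the enzyme that starts the return of IMP to AMP, gave 5284 and 5954 against 3375 and 3945 (log2 -0.62, SE 0.21, adjusted p = 0.705). Nme2, a cytosolic nucleoside diphosphate kinase, gave 47473 and 38484 against 29667 and 30260 (log2 -0.51, SE 0.22, adjusted p = 0.745). Guk1, the guanylate kinase, gave 7071 and 5429 against 4767 and 4260 (log2 -0.46, SE 0.24). In these last 3 genes both knockout arrays lay under both wild-type arrays. Adss1, Nme2 and Guk1 were named after their values were seen.

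**Figure D5:**
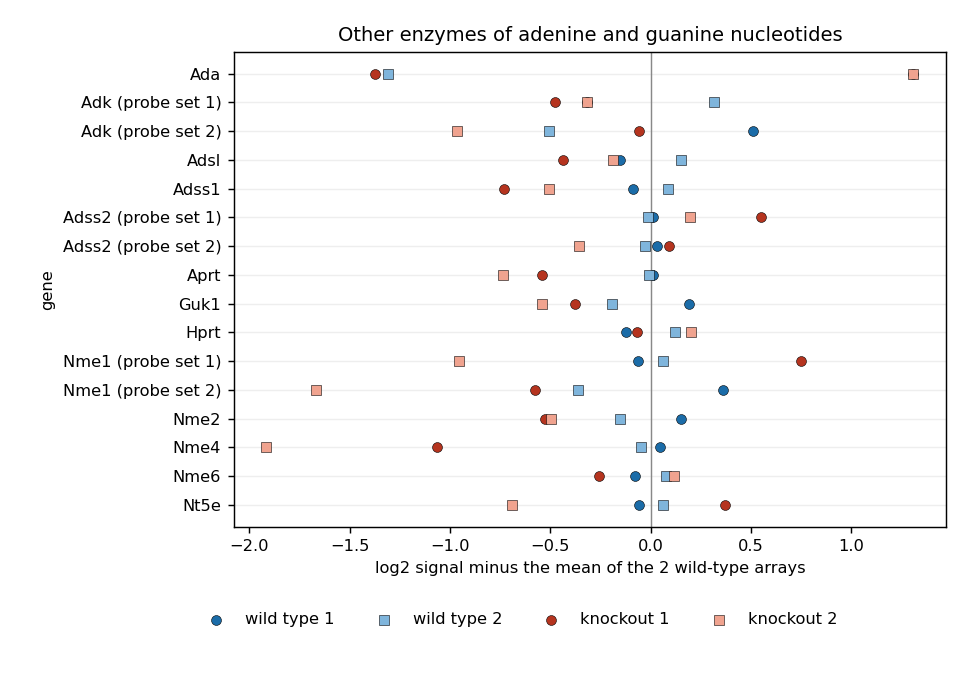
Log2 signal of each array minus the mean of the 2 wild-type arrays for the 16 kept probe sets of other purine nucleotide enzymes. Both knockout points lie to the left of both wild-type points for 7 probe sets (43.8%, against 16.7% of all probe sets tested), among them Adss1, Nme2 and Nme4. Nme4 was kept through its wild-type values and had to be lower. Without probe sets kept in that way 4 of 12 lie to the left. None passed over all probe sets.

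The remaining pathway lists had 0 probe sets past the threshold. Other mitochondrial carriers and contact site proteins had a median of 0.00 over 11 genes, with 7 of 13 probe sets higher. Slc25a10, the dicarboxylate carrier, gave 771.5 and 463.0 in wild type and 224.2 and 273.7 in knockout (log2 -1.27, SE 0.33, limma adjusted p = 0.694), kept through its wild-type values. Tspo, an outer membrane protein known for cholesterol transport, gave 10629 and 10664 against 15075 and 16499 (log2 0.57, SE 0.20, adjusted p = 0.711). Assembly and accessory factors of ATP synthase were measured for 2 of 7 genes, with Tmem70 at -0.22 and Fmc1 at 0.08 and -0.03. AMPK's upstream kinases and regulators had a median of -0.08 over 5 genes, with Cab39l at 0.29 and Cab39 at -0.14, and its substrates 0.15 over 4 genes, with Tsc2 at 0.20 and -0.38 on its kept probe sets and Mff at 0.21.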

How the data were processed

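The deposited value table gives an intensity per probe set and array, linear and scaled by the submitters; trimmed by 2% at each end, its mean was 1501 on every array. Summary method, software and build are not given in the sources used here. Probe sets were named through the platform annotation and RefSeq (GRCm38.p6): all 10833 with 1 symbol matched, 396 had several and 1193 none. Control probe sets (66) were not used. Probe sets with a mean under the 40th percentile (350.6) were dropped, leaving 7453. Signals under the 20th percentile (110) were set to it, log2 was taken, and limma 3.58.1 (R 4.3.3) compared the genotypes (lmFit, eBayes, Benjamini-Hochberg, threshold 0.05), without pairing. Folds are ratios of geometric means. The steps were tested on simulated data with planted differences larger than that of any member. That test does not show whether differences of the members' size would be called. With arrays, their number (4) limits the precision.

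Members and lists were chosen with earlier results of these data known; AAGGTCA was added after TNAAGGTCA had been searched, and the marker sum without Acta2 and the counts without probe sets kept through 1 genotype after values were seen. Values of every array are given for members with an unadjusted p under 0.05 or a 1.5-fold difference without overlap, for compared isoforms and for disagreeing probe sets; of the other lists, the 2 genes with the lowest p. Alternatives covered scaling, floor, filter, prior, pairing, each array left out, suffixed probe sets and the choice of probe set.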

Additional observations from a re-analysis of the deposited data

How the results depend on the processing

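Member probe sets past the threshold numbered 0 under all 13 alternatives, with a lowest adjusted p of 0.355. Of the 45 member probe sets, 20 kept their sign under every alternative that held them and 25 did not. The whole-array count of 1 was 0 with the floor at the 5th or the 40th percentile, with no filter, with the replicate block and without suffixed probe sets, 2 with the filter at the 60th percentile and 2 with the trend and robust prior, and 0 without any 1 array. The members at least 1.5-fold higher without overlap numbered 1 of 45 with the floor at the 40th percentile (5.78% of all probe sets). With the filter at the 60th they numbered 1 of 31 (3.68% of all). They numbered 4, 6, 4 and 5 without wild-type replicate 1, wild-type replicate 2, knockout replicate 1 and knockout replicate 2 (10.7% to 11.6% of all probe sets). The members lower numbered 2 after quantile normalization (5.64% of all) and 2 after median scaling (7.07% of all), Atp5mc1 and Ak4 both times. They numbered 3, 0, 5 and 3 without the same arrays in turn (7.58% to 8.87% of all). Median scaling moved the median of all probe sets from 0.03 to -0.10 and the 1.5-fold counts from 510 higher and 313 lower to 324 and 527; quantile normalization gave 391 and 420. Median scaling moved the ATP synthase median to -0.08, that of carriers and porins to -0.13 and that of adenylate and creatine genes to -0.25. With the filter at the 60th percentile the ATP synthase median was -0.01 and the adenylate and creatine median -0.27. Without suffixed probe sets the carriers stood at 0.15 and the adenylate and creatine genes at -0.27; averaging a gene's probe sets, they stood at 0.09 and 0.05. Without 1 array the medians ran from 0.03 to 0.07 for ATP synthase, -0.17 (without wild-type replicate 2) to -0.01 for carriers, -0.15 to -0.01 (without wild-type replicate 1; -0.03 without knockout replicate 1) for adenylate and creatine genes and -0.83 to 0.62 for AMPK (-0.83, 0.62, -0.56 and 0.35 without knockout replicates 1 and 2 and wild-type replicates 1 and 2). The cause of these moves was not tested. Samples with the same number did not deviate together (r = 0.0113 over probe sets). With 2 arrays a genotype this cannot settle whether the numbers pair samples, and the labels do not say. The replicate block changed no member's call.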
